A study of Mus musculus with 50 samples.

Results

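The H3K27ac peaks called in *Ezh1/2* dKO and in *Ezh2* KO embryonic stem cells (ESCs) were compared: which were shared, which were called in 1 line only, how wide and strong they were, and where they lay. All peaks of both lists entered, 17618 in *Ezh1/2* dKO and 25483 in *Ezh2* KO, or 43101 of the 125115 H3K27ac peaks listed for 4 mutant lines. The study asked how the methylated state of H3K27 bears on where the residue is acetylated in cells that lack 1 or both PRC2 methyltransferases. Both lines derive from E14 mouse ESCs, a male line, and were grown without feeders on gelatin in serum medium with LIF and the 2i inhibitors. In the *Ezh2* KO line the *Ezh2* gene was cut out with pairs of Cas9 guides, which leaves *Ezh1* in place, and in the *Ezh1/2* dKO line both genes were removed by targeting them in sequence. Each line is a clone and gave 1 H3K27ac library, so a difference between the lines cannot be told apart from a difference between clones or libraries. The remaining lists used here came from WT cells and from *Ezh1* KO cells whose *Ezh2* gene carries either of the catalytic mutations Y726D and R685C. These mutations are not alike. In the study's Western blots, Y726D cells lost all H3K27 methylation. R685C cells regained H3K27me2 more than H3K27me3, and their bulk H3K27ac rose less than in *Ezh2* KO. H3K27ac of WT cells was not analysed here.

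Lysine 27 of histone H3 can carry methyl groups or an acetyl group, but not both at once. PRC2, built around SUZ12, EED and either EZH1 or EZH2, places the methyl groups, and H3K27me3 marks the silent promoters of developmental genes in ESCs. EZH2 is the more active of the 2 enzymes, while EZH1 is catalytically weaker. Acetylation of the residue by p300 and CBP marks active promoters and enhancers. Many PRC2-bound promoters are CpG islands, stretches of DNA rich in the dinucleotide CG.

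Sequences are given for the strongest peaks that had no peak of the other line within 5 kb, 2 promoter peaks and 2 distal peaks for each line. They are examples of CG content and position, to which the sections on Polycomb sites return. Each is the plus strand of mm9 (NCBIM37), 5′ to 3′, from a window of 300 bp around the summit, shortened where it ran into an annotated UTR. Capitals mark CG dinucleotides.
Tmem90b promoter, Ezh1/2 dKO, chr2:149656263-149656523: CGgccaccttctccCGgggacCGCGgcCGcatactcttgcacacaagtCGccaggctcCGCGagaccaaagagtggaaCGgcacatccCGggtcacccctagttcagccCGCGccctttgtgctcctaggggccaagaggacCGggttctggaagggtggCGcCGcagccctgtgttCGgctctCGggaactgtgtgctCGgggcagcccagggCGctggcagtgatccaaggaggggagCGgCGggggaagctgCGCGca
1110006G14Rik promoter, Ezh1/2 dKO, chr7:123175293-123175592: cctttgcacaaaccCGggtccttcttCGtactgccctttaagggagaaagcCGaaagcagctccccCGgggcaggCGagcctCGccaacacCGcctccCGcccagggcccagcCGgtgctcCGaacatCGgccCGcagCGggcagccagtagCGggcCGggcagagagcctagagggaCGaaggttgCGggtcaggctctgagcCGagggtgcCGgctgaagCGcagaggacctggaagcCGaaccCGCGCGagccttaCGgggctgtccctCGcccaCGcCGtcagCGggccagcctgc
Distal peak nearest Cbx8, Ezh1/2 dKO, chr11:118917899-118918198: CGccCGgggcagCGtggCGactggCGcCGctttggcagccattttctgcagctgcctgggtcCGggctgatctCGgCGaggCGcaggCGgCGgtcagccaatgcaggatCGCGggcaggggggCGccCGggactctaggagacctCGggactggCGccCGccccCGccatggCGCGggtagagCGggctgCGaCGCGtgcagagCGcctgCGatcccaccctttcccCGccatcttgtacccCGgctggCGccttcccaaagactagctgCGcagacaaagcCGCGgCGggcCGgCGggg
Distal peak nearest Tshz3, Ezh1/2 dKO, chr7:37069503-37069802: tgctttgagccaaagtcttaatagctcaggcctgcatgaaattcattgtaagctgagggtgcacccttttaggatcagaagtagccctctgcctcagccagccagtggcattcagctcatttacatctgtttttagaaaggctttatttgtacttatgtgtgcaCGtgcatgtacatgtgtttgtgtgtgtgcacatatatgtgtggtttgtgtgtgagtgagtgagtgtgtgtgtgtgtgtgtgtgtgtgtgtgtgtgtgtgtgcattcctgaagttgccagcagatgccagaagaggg
Cirbp promoter, Ezh2 KO, chr10:79630662-79630932: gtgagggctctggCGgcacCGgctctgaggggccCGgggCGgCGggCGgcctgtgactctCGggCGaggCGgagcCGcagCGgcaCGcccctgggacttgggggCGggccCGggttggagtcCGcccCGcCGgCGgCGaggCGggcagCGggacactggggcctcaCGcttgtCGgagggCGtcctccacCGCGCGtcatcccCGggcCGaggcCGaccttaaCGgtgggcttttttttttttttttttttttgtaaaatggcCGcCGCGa
Eif3f promoter, Ezh2 KO, chr7:116078000-116078299: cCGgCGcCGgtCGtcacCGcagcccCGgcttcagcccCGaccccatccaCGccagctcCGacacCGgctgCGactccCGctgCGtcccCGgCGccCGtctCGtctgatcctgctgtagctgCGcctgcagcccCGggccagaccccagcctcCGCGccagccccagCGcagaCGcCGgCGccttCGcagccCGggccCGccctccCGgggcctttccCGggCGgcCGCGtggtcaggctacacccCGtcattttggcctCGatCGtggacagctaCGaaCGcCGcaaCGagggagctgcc
Distal peak nearest Rcan1, Ezh2 KO, chr16:92423953-92424252: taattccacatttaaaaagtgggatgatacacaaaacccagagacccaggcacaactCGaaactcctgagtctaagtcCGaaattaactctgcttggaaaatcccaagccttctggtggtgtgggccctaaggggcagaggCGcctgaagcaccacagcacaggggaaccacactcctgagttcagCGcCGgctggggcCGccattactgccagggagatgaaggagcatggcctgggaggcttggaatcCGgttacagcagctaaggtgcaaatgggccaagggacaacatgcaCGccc
Distal peak nearest Fzd7, Ezh2 KO, chr1:59506293-59506592: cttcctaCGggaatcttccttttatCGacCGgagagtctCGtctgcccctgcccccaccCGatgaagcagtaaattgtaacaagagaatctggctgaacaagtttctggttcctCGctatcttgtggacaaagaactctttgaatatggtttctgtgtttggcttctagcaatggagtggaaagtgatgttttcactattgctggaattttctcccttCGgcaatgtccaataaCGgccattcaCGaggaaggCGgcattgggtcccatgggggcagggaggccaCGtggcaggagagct

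The *Tmem90b* and 1110006G14Rik windows hold 23 and 29 CG dinucleotides, and the *Cirbp* and *Eif3f* windows hold 34 and 40. Among the distal windows, the one nearest *Cbx8* holds 37, against 1 near *Tshz3*, 8 near *Rcan1* and 11 near *Fzd7*. Only the distal window near *Cbx8* was therefore as CG-rich as the promoter windows. The *Tmem90b*, 1110006G14Rik and *Cbx8* peaks overlapped SUZ12 peaks of WT cells, and the other 5 did not. The printed promoter windows on SUZ12 thus held fewer CG dinucleotides than those off it.

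The libraries matched their labels at the RNA level. *Ezh2* was at 598 and 546 normalized counts in WT, 1.05 and 0.968 in *Ezh2* KO, and 0.824 and 1.78 in *Ezh1/2* dKO. *Ezh1* was at 372 and 378 in *Ezh2* KO and at 14 and 20.4 in *Ezh1/2* dKO. Both lines carried H3K27ac peaks within 1 kb of the start of 18 of the 19 ESC marker genes in the annotation, and the RNA of these 19 genes differed between the lines by log2 values from -0.50 (*Nr0b1*) to 0.27 (*Fgf4*). Summed over 8 fibroblast markers, normalized counts were 773 and 1249 in *Ezh2* KO and 772 and 962 in *Ezh1/2* dKO, most of it *Vim* (log2 fold change -0.39, limma adjusted p = 0.791). Of the 2 that passed the filter on low values *Thy1* was called higher in *Ezh1/2* dKO (15.7 and 10.6 against 88.2 and 101.2, limma adjusted p = 0.0162), a call lost without either *Ezh1/2* dKO library. *Col1a1* (0 and 1.94 against 4.12 and 11.5), *Twist1* (0 and 0 against 14.8 and 2.66) and *Lum* (0 and 0 against 4.95 and 0.888) were low in both lines and not tested. By the size of 1 read in the fold enrichment of the weakest peaks, the 2 H3K27ac libraries differed in read total by 0.0411%, so by this estimate the lists do not differ in depth.

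The *Ezh1/2* dKO list was the shorter and its peaks were narrower and weaker. Peaks covered 11.5 Mb in *Ezh1/2* dKO and 20.53 Mb in *Ezh2* KO, with median widths of 517 bp (quartiles 342 and 796) and 625 bp (387 and 998). Strength, taken as the -log10 p that the peak caller assigned, had a median of 13.6 in *Ezh1/2* dKO and 14.8 in *Ezh2* KO, and 19.8% against 27.1% of peaks reached p of 1e-20. Peaks of at least 2 kb numbered 381 (2.16%) and 1270 (4.98%). Such broad stretches were thus a small part of either list. The 2 catalytic mutant lines had 40829 (Y726D) and 41185 (R685C) peaks. Peak lists carry no spike-in scaling, so the number of peaks does not give the total amount of the mark in a line.

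Most *Ezh1/2* dKO peaks lay on *Ezh2* KO peaks, while about as many *Ezh2* KO peaks were shared as were not. Of the *Ezh1/2* dKO peaks, 14142 (80.3%, 95% Wilson interval 79.7 to 80.9) overlapped an *Ezh2* KO peak by at least 1 bp and 3476 did not. Of the *Ezh2* KO peaks, 12743 (50.01%, 49.4 to 50.6) overlapped an *Ezh1/2* dKO peak and 12740 did not. These intervals, like all those that follow, cover counting error only, and the spread between cultures of a line was not measured. When the *Ezh2* KO list was reduced to its 17618 strongest peaks, 71.6% of *Ezh1/2* dKO peaks and 62.8% of *Ezh2* KO peaks were shared, leaving 5012 and 6550 in 1 line only. The difference between the lines was smaller at equal length, and it kept its direction.

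**Figure D1:**
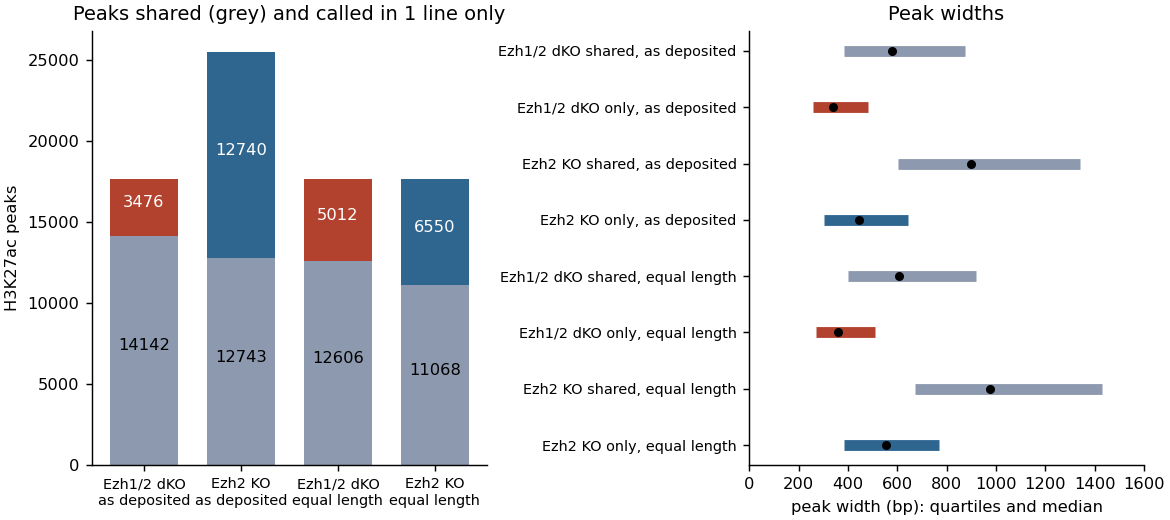
Left, bars give the number of H3K27ac peaks in each list, as deposited and at equal length, with shared peaks in grey and peaks of 1 line only in colour (3476 and 12740 as deposited, 5012 and 6550 at equal length). Right, the width in bp of each class, with bars from the lower to the upper quartile and a dot at the median: peaks of 1 line only are narrower than shared ones, and *Ezh1/2* dKO peaks are narrower than *Ezh2* KO peaks of the same class.

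Peaks of 1 line only were the weak and narrow ones in both lists. Of the 5 equal groups of *Ezh1/2* dKO peaks by strength, the weakest was overlapped in *Ezh2* KO for 62.4% of its peaks and the strongest for 98.6%. In *Ezh2* KO the same groups rose from 19.01% to 93.4%. Peaks called in *Ezh1/2* dKO only had a median width of 340 bp and a median strength of 11.8, against 580 bp and 15.02 for its shared peaks. Peaks called in *Ezh2* KO only had 444 bp and 12.2, against 898 bp and 19.7. Many peaks of 1 line only therefore sat close to the threshold of 10 at which both lists end.

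Within shared sites the *Ezh1/2* dKO peak was usually the narrower one. In 10245 pairs in which 1 peak of each line overlapped 1 of the other, the median width was 569 bp for the *Ezh1/2* dKO peak and 844 bp for the *Ezh2* KO peak, and 80.9% of pairs were narrower in *Ezh1/2* dKO. The median ratio of widths was 0.73 (quartiles 0.53 and 0.93), and it was 0.70 at promoters and 0.79 at distal sites. Median strength was 14.8 in *Ezh1/2* dKO and 18.96 in *Ezh2* KO, and 75.1% of pairs were weaker in *Ezh1/2* dKO. A further 1664 *Ezh2* KO peaks were met by 2 or more *Ezh1/2* dKO peaks, against 519 in the reverse direction. Wide *Ezh2* KO peaks were thus more often matched by several narrow *Ezh1/2* dKO peaks than the other way round. Across the 10245 pairs, which come from 2 libraries and share their loci, Spearman's rho of strength was 0.59 and Pearson's r was 0.75.

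Peaks of 1 line only differed in placement. A peak within 5 kb of an annotated transcription start site (TSS) was counted as a promoter peak and any other as distal. Of the *Ezh1/2* dKO-only peaks 1376 (39.6%, 38.0 to 41.2) were promoter peaks, against 6337 (49.7%, 48.9 to 50.6) of the *Ezh2* KO-only peaks, while shared peaks had 53.7% in *Ezh1/2* dKO and 54.2% in *Ezh2* KO. At equal length the shares were 40.8% and 53.0%. A TSS lay inside 8.10% of *Ezh1/2* dKO-only and 17.1% of *Ezh2* KO-only peaks at equal length, and 15.1% against 9.85% were more than 50 kb from any TSS. A narrower peak has less room for a TSS, and the median widths of these classes were 359.5 and 554 bp. By the share beyond 50 kb, *Ezh1/2* dKO-only peaks were farther from genes. Of the distal peaks of 1 line only, 59.5% in *Ezh1/2* dKO and 48.3% in *Ezh2* KO were intergenic, and 35.0% and 44.2% lay in introns.

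**Figure D2:**
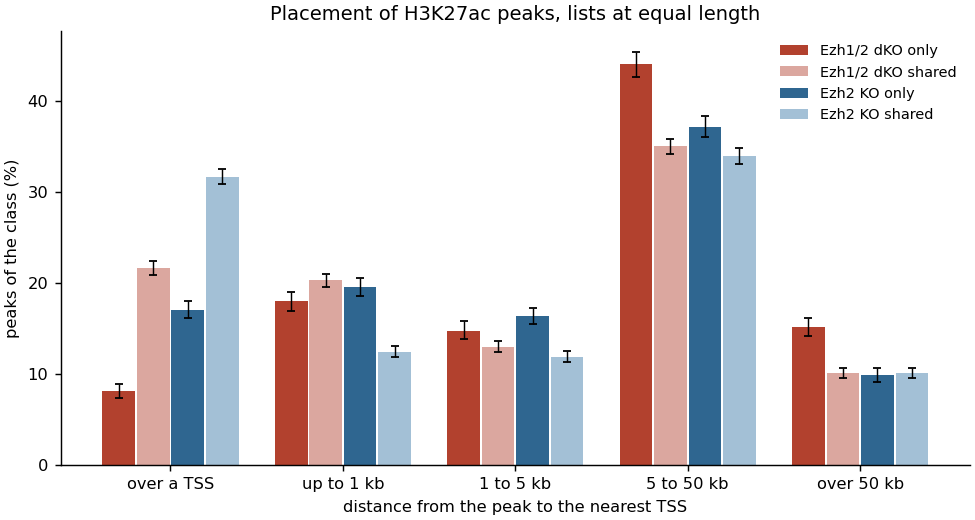
Share of H3K27ac peaks (%) by distance to the nearest TSS for peaks of 1 line only (dark) and shared peaks (light) at equal list length, with 95% Wilson intervals as error bars. *Ezh1/2* dKO-only peaks are the lowest over a TSS (8.10%) and the highest beyond 50 kb (15.1%).

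The X chromosome carried few peaks of either line, 143 (0.812%, 0.689 to 0.955) of the *Ezh1/2* dKO list and 313 (1.23%, 1.10 to 1.37) of the *Ezh2* KO list. The ratio of *Ezh1/2* dKO to *Ezh2* KO peak numbers was 0.457 there, against 0.604 on chromosome 8, the lowest autosome, and 0.746 on chromosome 1, the highest. The X chromosome thus stood below every autosome in this ratio.

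Peaks of WT Polycomb sites stood mostly in the *Ezh1/2* dKO-only class. Of the 3476 *Ezh1/2* dKO-only peaks, 354 (10.2%, 9.22 to 11.2) overlapped a WT SUZ12 peak, against 44 of the 12740 *Ezh2* KO-only peaks (0.345%, 0.257 to 0.463) and 1.22% and 1.31% of shared peaks. At equal length the shares were 8.10% and 0.351%. The overlap was mostly at promoters, with 313 of 1376 *Ezh1/2* dKO-only promoter peaks (22.7%) against 41 of 6337 in *Ezh2* KO only (0.647%), and it was 1.95% against 0.0469% for distal peaks. These sites were taken from WT cells, not from either mutant line. The labels name an input library of E14 cells, but whether the lists share it is not given in the sources used here.

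The marks of the *Ezh2* KO line itself gave the same order. H3K27me3 peaks of *Ezh2* KO cells, where EZH1 is the only methyltransferase of PRC2, overlapped 7.48% of *Ezh1/2* dKO-only peaks and 0.165% of *Ezh2* KO-only peaks. For the SUZ12 peaks of *Ezh2* KO the shares were 2.1% and 0.0235%. H3K27me2 was deposited as long regions. Only chromosomes present in the H3K27me2 lists of WT, *Ezh2* KO and *Ezh1/2* dKO alike were used, which leaves out chromosomes 8 and Y. On these, 5785 regions of *Ezh2* KO had a mean p of at most 0.001, 72.8 Mb in all. They overlapped 449 of the 3370 *Ezh1/2* dKO-only peaks (13.3%, 12.2 to 14.5) and 40 of 12224 *Ezh2* KO-only peaks (0.327%). Shared peaks met these regions in 0.679% of cases in *Ezh1/2* dKO and 0.681% in *Ezh2* KO. Where the *Ezh2* KO line was marked by H3K27me2 or H3K27me3, an H3K27ac peak was therefore listed far more often in *Ezh1/2* dKO alone than in *Ezh2* KO alone. H3K27me3 peaks of *Ezh1/2* dKO cells overlapped 0 of the 3476 *Ezh1/2* dKO-only peaks. The study found almost no H3K27me3 peaks in this line, which lacks both methyltransferases. An overlap was therefore hardly possible, and the 0 does not bear on where acetylation lay.

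**Figure D3:**
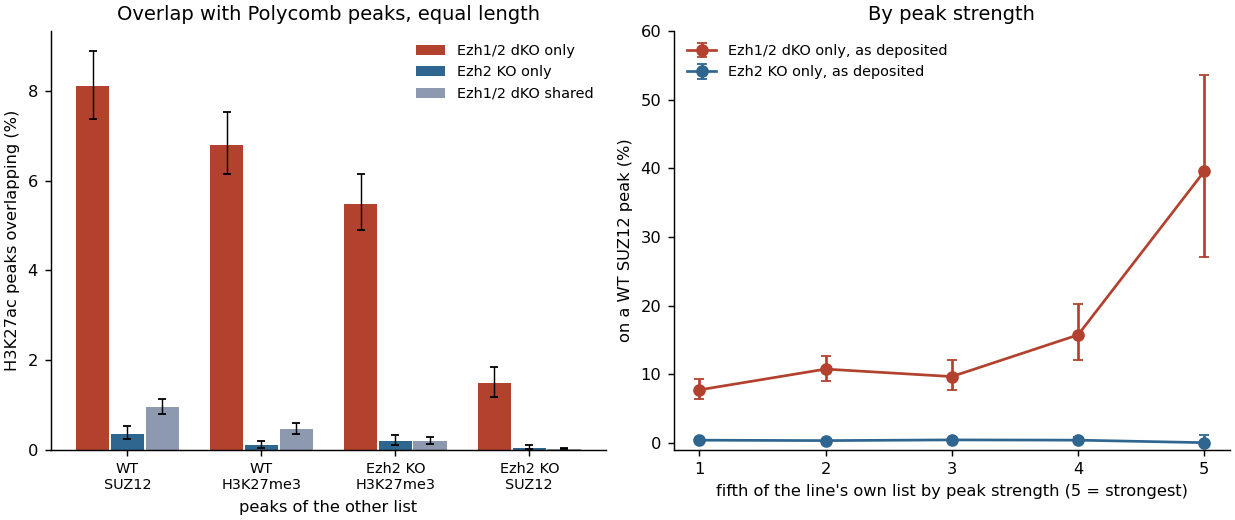
Left, the share of H3K27ac peaks (%) at equal list length that overlapped SUZ12 or H3K27me3 peaks of WT or *Ezh2* KO cells, for *Ezh1/2* dKO-only, *Ezh2* KO-only and shared *Ezh1/2* dKO peaks. Right, the share of peaks of 1 line only that lay on a WT SUZ12 peak (%), over 5 equal groups of each list by strength: it is 7.70% in the weakest and 39.6% in the strongest group in *Ezh1/2* dKO and is at most 0.404% in *Ezh2* KO, and error bars in both panels are 95% Wilson intervals.

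The share on WT SUZ12 sites was highest among the strongest *Ezh1/2* dKO-only peaks. It was 7.70% (102 of 1325) in the weakest of 5 groups, 10.7% and 9.64% in the next, 15.7% (47 of 299) in the next to strongest, and 39.6% (19 of 48, 27 to 53.7) in the strongest. In *Ezh2* KO it was 0.363% in the weakest group and 0 of 337 in the strongest, which allows a share of up to 1.13%. Of the shared sites, 147 of the 10245 pairs lay on WT SUZ12 peaks. Seen from the SUZ12 side, 499 of 5404 WT SUZ12 peaks (9.23%, 8.49 to 10.04) carried H3K27ac in *Ezh1/2* dKO, 214 (3.96%, 3.47 to 4.51) in *Ezh2* KO, 28.3% in Y726D and 7.01% in R685C. Among the strongest of 5 equal groups of SUZ12 peaks the shares were 9.62% in *Ezh1/2* dKO and 2.04% in *Ezh2* KO.

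By gene, the lines differed in opposite directions at SUZ12-bound promoters and at the rest. A promoter was called acetylated when a peak lay within 1 kb of a TSS of a protein-coding gene, and SUZ12-bound when a WT SUZ12 peak lay within 5 kb. Over all 22367 promoters, 24.8% carried a peak in *Ezh1/2* dKO and 33.6% in *Ezh2* KO. Of the 3229 SUZ12-bound promoters 515 (15.9%, 14.7 to 17.3) had one in *Ezh1/2* dKO and 384 (11.9%, 10.8 to 13.1) in *Ezh2* KO, or 8.33% in *Ezh2* KO at equal length. Of the 19138 promoters without SUZ12, 26.3% and 37.2% had one. With peaks of p at most 1e-20 the order at SUZ12-bound promoters turned, with 2.94% in *Ezh1/2* dKO and 3.75% in *Ezh2* KO, and it turned back, with 1.70% in *Ezh2* KO, when those 2 lists were also brought to equal length.

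SUZ12-bound promoters were split by whether they held H3K27me3 in *Ezh2* KO. Of the 2640 that had an *Ezh2* KO H3K27me3 peak within 5 kb, 11.0% (9.85 to 12.2) carried H3K27ac in *Ezh1/2* dKO and 6.48% (5.60 to 7.48) in *Ezh2* KO, or 4.39% (3.68 to 5.24) in *Ezh2* KO at equal length. Of the 589 without one, 38.2% (34.4 to 42.2) did in *Ezh1/2* dKO and 36.2% (32.4 to 40.1) in *Ezh2* KO, intervals that overlap, but at equal length the *Ezh2* KO share was 25.98% (22.6 to 29.7). At equal length the *Ezh1/2* dKO share was thus the higher one with and without H3K27me3. Only the *Ezh2* KO list is cut there, so only its share could fall. With peaks of p at most 1e-20 the order turned, at 1.67% against 2.12% in *Ezh2* KO with H3K27me3 and 8.66% against 11.0% without. It turned back when those lists were also brought to equal length, with 0.871% and 5.43% in *Ezh2* KO. Promoters with H3K27ac in 1 line and no peak within 5 kb in the other numbered 423 for *Ezh1/2* dKO (1.89% of all promoters) and 2218 for *Ezh2* KO (9.92%). Of the 423, 204 (48.2%) were SUZ12-bound, against 84 of the 2218 (3.79%). The *Ezh1/2* dKO-only promoters carried a peak in Y726D for 85.1% and in R685C for 42.8%, while the *Ezh2* KO-only promoters did so for 77.0% and 94.5%. Over all promoters the shares were 41.8% in Y726D and 41.6% in R685C, and over SUZ12-bound ones 38.6% and 17.1%. The 42.8% in R685C was thus near the share of all promoters. Over peaks of 1 line only rather than promoters, Y726D held 73.7% of those of *Ezh1/2* dKO and 71.8% of those of *Ezh2* KO, and R685C held 57.7% and 87.9%.

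The strongest promoter peaks with no counterpart split the same way. In *Ezh1/2* dKO they belonged to *Tmem90b* (-log10 p 36.8, fold enrichment 11.9), which encodes a transmembrane protein of synapses, 1110006G14Rik (32.0), *Rasl10a*, a small GTPase of the Ras family (25.7), A430105I19Rik (25.7), *Lpgat1*, a phospholipid acyltransferase (25.3), *Glp1r*, the receptor of the gut hormone GLP-1 (25.3), *Nes*, the intermediate filament of neural progenitors (25.2), 4930447C04Rik (24.2), *Ccnd2*, a cyclin of the G1 phase (23.1), and *Sema5b*, an axon guidance protein (22.7). Of these 10 peaks, 8 lay on WT SUZ12, 7 on *Ezh2* KO H3K27me3 and 8 on a strong *Ezh2* KO H3K27me2 region, and the *Tmem90b* peak was stronger than 97.2% of its list. All 10 were present in Y726D and 3 in R685C. The 10 of *Ezh2* KO belonged to *Cirbp*, a cold-inducible RNA-binding protein (47.0), *Eif3f*, a translation initiation subunit (45.5), *Cit*, the citron kinase of cytokinesis (43.1), *Rbm17*, a splicing factor (43.0), *Etaa1*, an activator of the kinase ATR (42.6), *Gtf3c4*, a subunit of the RNA polymerase III factor TFIIIC (37.1), *Nap1l4*, a histone chaperone (36.8), *Fam133b* (35.6), *Epn1*, an endocytosis adaptor (35.6), and *Pcgf6*, a subunit of a variant PRC1 (35.3). None of these 10 lay on SUZ12 or H3K27me3 of WT or *Ezh2* KO, and 7 were present in Y726D and 10 in R685C. *Cit* has another TSS with an *Ezh1/2* dKO peak of 17.0.

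Among the 5 strongest distal peaks of *Ezh1/2* dKO with no counterpart, the one nearest *Cbx8* (34.7) lay 15352 bp from the TSS on SUZ12 and H3K27me3 of WT and on H3K27me3 of *Ezh2* KO. *Cbx8* encodes a chromobox subunit of PRC1. The peak nearest *Sfmbt2*, a Polycomb group gene, lay 5070 bp from a TSS (27.5) on an *Ezh2* KO H3K27me2 region only. The peaks nearest *Tshz3* (31.2), *Dnajc5b* (27.5) and *Chn1* (26.4) lay on none of these marks. Their distances to the TSS were 413248, 6717 and 23469 bp, so the *Tshz3* peak was far from any gene it is named by. In *Ezh2* KO the 5 distal peaks were nearest *Rcan1* (35.9), *Fzd7*, a Wnt receptor (35.6), *Sod1* (33.8), *Ank2* (33.3) and *Morc1* (32.4), and none lay on a Polycomb peak. These lay 23186, 30547, 5847, 43056 and 66628 bp from the TSS. Over all peaks with no counterpart within 5 kb, 297 of 1830 in *Ezh1/2* dKO and 26 of 6876 in *Ezh2* KO were on WT SUZ12.

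CG content differed more between peaks on and off SUZ12 than between the lines. Windows of 300 bp around the summit were called CpG-rich above 55% GC and an observed to expected CpG ratio of 0.65. Of the *Ezh1/2* dKO-only promoter peaks 32.6% were CpG-rich, against 23.8% in *Ezh2* KO only and 42.5% and 43.2% of shared promoter peaks, and at equal length the first 2 shares were 32.8% and 29.6%. Among *Ezh1/2* dKO-only promoter peaks, 230 of 313 on WT SUZ12 (73.5%, 68.3 to 78.1) and 219 of 1063 off it (20.6%, 18.3 to 23.1) were CpG-rich. Of distal peaks 2.62% were in *Ezh1/2* dKO only and 0.703% in *Ezh2* KO only. The *Cbx8* window printed above is one of the few distal cases.

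Peaks of 1 line only met open chromatin less often than shared peaks did, and those of *Ezh1/2* dKO the least often. Of the 50000 strongest ATAC-seq regions of *Ezh1/2* dKO cells, some part lay in 18.4% of *Ezh1/2* dKO-only peaks, 22.2% of *Ezh2* KO-only peaks and 30.3% and 32.1% of shared peaks. In ATAC-seq of *Ezh2* KO cells the shares were 22.6% and 28.8% for peaks of 1 line only. Any overlap counted, and a narrower peak has less room to meet a region. Median widths had the same order, 340 bp in *Ezh1/2* dKO only, 444 bp in *Ezh2* KO only, and 580 and 898 bp for shared peaks. The part of width in these shares was not tested.

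The *Hox* clusters, whose genes pattern the body axis and are classical Polycomb targets, held more peaks in *Ezh1/2* dKO than in *Ezh2* KO. The numbers of peaks in *Ezh1/2* dKO and *Ezh2* KO were 10 and 1 in *Hoxa*, 5 and 1 in *Hoxb*, 13 and 5 in *Hoxc*, and 5 and 0 in *Hoxd*. In Y726D they were 29, 8, 35 and 32, and in R685C 1, 2, 4 and 0. Of 39 *Hox* promoters, all SUZ12-bound, 12 carried a peak in *Ezh1/2* dKO, 2 in *Ezh2* KO, 26 in Y726D and 2 in R685C. Over all SUZ12-bound promoters the shares were 15.9%, 11.9%, 38.6% and 17.1%, in the same order. *Hoxa10* (19.4), *Hoxa11* (18.9), *Hoxa7* (17.9) and *Hoxd3* (16.4) had the strongest peaks among the promoters with none in *Ezh2* KO. In RNA, 9 of the 20 *Hox* genes tested were called higher in *Ezh1/2* dKO, against 3.52% of all genes tested and 14.8% of SUZ12-bound ones, and without a single library 2 to 6 were called. *Hoxa9*, *Hoxd10* and *Hoxd13* were among the 9, without a promoter peak in either line. The filter on low values keeps a gene near 0 in *Ezh2* KO only if it is high in other libraries, so the 20 tested lean towards the called direction. With no filter, 11 of 36 *Hox* genes were called higher, against 3.24% of all genes.

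Of 15 loci on a list of exemplary Polycomb targets, 5 carried H3K27ac in *Ezh1/2* dKO and 0 in *Ezh2* KO. That list was chosen by the study on these samples and is not independent evidence of a direction. Lineage genes seldom had a peak. Primitive endoderm genes had 2 of 10 in *Ezh1/2* dKO (*Lama1* and *Col4a1*, both basement membrane proteins), neuroectoderm genes 1 of 9 (*Nes*), trophectoderm genes 1 of 8 (*Ascl2*) and mesoderm genes 0 of 10, and *Ezh2* KO had 0 in each of these lists. The shares in *Ezh1/2* dKO are below the 24.8% of all promoters, and those in *Ezh2* KO are below 33.6%. Most of these lineage genes were SUZ12-bound, however. Of all SUZ12-bound promoters 15.9% had a peak in *Ezh1/2* dKO and 11.9% in *Ezh2* KO. The 2 of 10 of primitive endoderm genes is not below that 15.9%. Of 6 formative genes, switched on as ESCs leave the naive state, *Fgf5*, *Lef1* and *Sox4* had a peak in *Ezh1/2* dKO only and *Otx2* in both. Of 10 germline genes, which were not SUZ12-bound, *Dazl* and *Mael* had a peak in *Ezh1/2* dKO and *Sycp3* in *Ezh2* KO. Among the subunits of PRC2, 7 of 8 promoters carried a peak in *Ezh1/2* dKO and 6 in *Ezh2* KO, and the difference was *Ezh1* itself, with 18.5 in *Ezh1/2* dKO, 16.0 in Y726D and no peak within 1 kb in *Ezh2* KO, where one lay within 5 kb. Of the H3K27 acetylases, deacetylases and demethylases, 4 of 7 in *Ezh1/2* dKO and 6 of 7 in *Ezh2* KO had one, *Hdac3* and *Kdm6b* in *Ezh2* KO only. Housekeeping promoters had a peak for 9 of 10 in both lines.

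RNA-seq of the same lines, with 2 libraries each, was set beside the promoter classes. Of 13872 genes tested with limma on log2(normalized count + 1) over 8 libraries, 488 (3.52%) were called higher in *Ezh1/2* dKO and 8 (0.0577%) lower, at a Benjamini-Hochberg adjusted p under 0.1 and a log2 fold change of at least 1. The number called higher depended on every library and fell to 170 and 236 without *Ezh2* KO replicate 1 or 2, and to 62 and 52 without *Ezh1/2* dKO replicate 1 or 2. All values below are for promoter classes at equal list length, where *Ezh1/2* dKO-only promoters are 3.36% and *Ezh2* KO-only promoters 6.7% of all.

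Genes with promoter H3K27ac in *Ezh1/2* dKO only had a median log2 difference of 0.21 (*Ezh1/2* dKO minus *Ezh2* KO), against -0.01 over all genes tested. Of 718 such genes 671 passed the filter on low values, and 46 of them (6.86%, 5.18 to 9.02) were called higher. With no filter, 41 of 718 (5.71%) were called and the median was 0.24. With the lists as deposited the class was smaller, and 44 of 367 genes tested (11.99%, 9.05 to 15.7) were called, with a median of 0.58. Without a single library 6 to 26 of the 671 were called, while the median stayed between 0.18 and 0.25. The calls lay mostly with SUZ12-bound genes, 36 of 231 (15.6%, median 0.88), against 10 of 440 without SUZ12 (2.27%, median 0.06), which is under the 3.52% of all genes. Without a single library these counts were 6 to 23 of the 231 and 0 to 3 of the 440. Over all 1899 SUZ12-bound genes 14.8% were called (median 0.85), and over the 1208 that had no H3K27ac peak within 5 kb in either line 18.5% were (median 1.18). The filter on low values kept 231 of 250 SUZ12-bound genes with an *Ezh1/2* dKO-only peak, but only 1208 of 2115 with no peak. With no filter, 32 of 250 (12.8%) and 264 of 2115 (12.5%) were called. With DESeq2, 43 of 250 and 201 of 2115 were called. How the shares with and without an *Ezh1/2* dKO-only peak compare thus depended on the filter and the tool, and the difference was not tested.

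Genes with promoter H3K27ac in *Ezh2* KO only moved little. Of 1429 tested, 3 were called higher (0.210%) and 1 lower (0.0700%), with a median of -0.08, and the median was -0.11 for the 4500 genes with a peak in both lines. Of the 458 higher genes found in the annotation, 54 (11.8%) had a promoter peak in *Ezh1/2* dKO, 12 (2.62%) in *Ezh2* KO and 139 (30.3%) in Y726D, and 379 (82.8%) had no peak within 5 kb in either line. Among the 13138 genes tested that are in the annotation, 40.1% had a promoter peak in *Ezh1/2* dKO, 54.5% in *Ezh2* KO and 66.0% in Y726D, and 36.7% had no peak within 5 kb in either line. Most genes with more RNA in *Ezh1/2* dKO therefore had no listed H3K27ac peak within 5 kb.

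**Figure D4:**
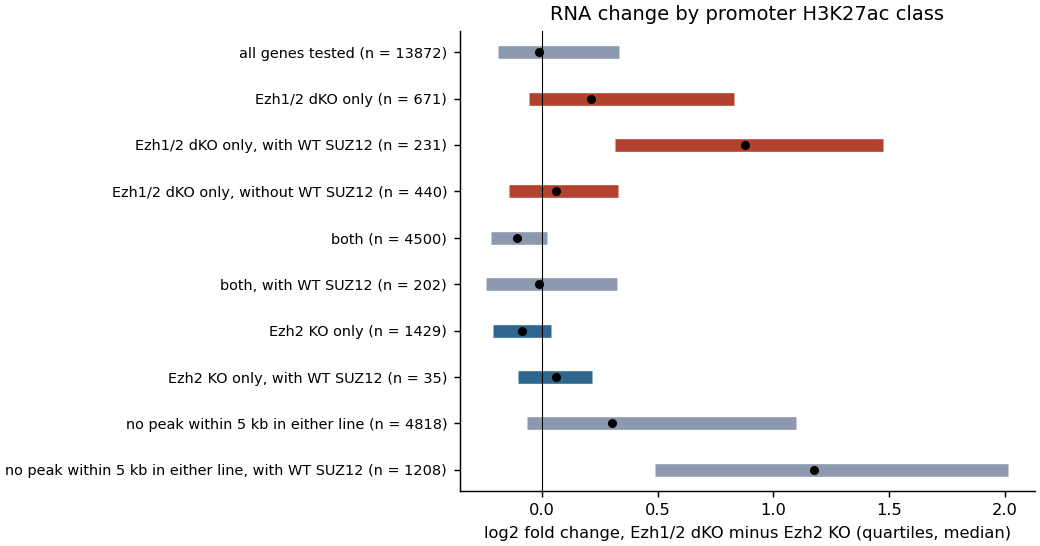
The log2 fold change of RNA (*Ezh1/2* dKO minus *Ezh2* KO, on log2(normalized count + 1)) by promoter H3K27ac class at equal list length, with bars from the lower to the upper quartile, dots at the median and the number of genes tested in each class. SUZ12-bound genes are shifted to higher values both with an *Ezh1/2* dKO-only peak (median 0.88) and with no peak in either line (1.18).

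Of the 10 strongest *Ezh1/2* dKO-only promoters, 9 had RNA values, of which 4 were called higher and 5 were not. Over all genes tested 3.52% were called higher. The share was 14.8% over SUZ12-bound genes, and 8 of these 10 peaks lay on WT SUZ12. *Tmem90b* was at 33.5 and 31.9 normalized counts in *Ezh2* KO and at 175 and 125 in *Ezh1/2* dKO, with no overlap (log2 fold change 2.14 ± 0.30 SE, limma adjusted p = 0.00883). *Ccnd2* rose from 51.2 and 28.1 to 523 and 504 (3.72 ± 0.55, limma adjusted p = 0.0113). *Sema5b* rose from 16.7 and 10.6 to 77.5 and 67.5 (2.35 ± 0.43, limma adjusted p = 0.0298). In these 3 genes both *Ezh1/2* dKO libraries stood above both *Ezh2* KO libraries. *Nes* had 15.7 and 56.1 against 111 and 162 (2.13 ± 0.54, limma adjusted p = 0.0867), and its groups did not overlap. *Glp1r* did not pass, at 7.32 and 15.5 against 37.9 and 39.1 (1.75 ± 0.62, limma adjusted p = 0.229), nor did *Lpgat1*, at 215 and 153 against 246 and 217 (0.35 ± 0.38, limma adjusted p = 0.777). *Rasl10a*, A430105I19Rik and 4930447C04Rik did not pass either, with log2 fold changes of 0.69, 0.82 and 0.68 (limma adjusted p from 0.608 to 0.827). *Tmem90b* lost its call without *Ezh1/2* dKO replicate 1 (limma adjusted p = 0.135), *Ccnd2* without either *Ezh1/2* dKO replicate (up to 0.118), and *Sema5b* and *Nes* in 3 of the 4 fits that left out a library (up to 0.246 and 0.513).

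The calls with the largest changes among *Ezh1/2* dKO-only promoters were *Hox* and other Polycomb targets. *Hoxa10* was at 5.23 and 0 in *Ezh2* KO and at 226 and 223 in *Ezh1/2* dKO (limma adjusted p = 0.00635). *Cxcl14*, a chemokine, rose from 3.14 and 5.81 to 78.3 and 98.6 (log2 fold change 4.07 ± 0.45, limma adjusted p = 0.00347). *Col4a2* rose from 12.5 and 14.5 to 150.02 and 118.98 (3.21 ± 0.33, limma adjusted p = 0.00231). These 3 genes kept the call without any 1 of the 4 libraries. *Col4a1*, the collagen IV chain that is transcribed from the same promoter as *Col4a2* in the opposite direction and shares its peak, rose from 117 and 61.9 to 896 and 660 (3.16 ± 0.36, limma adjusted p = 0.00363). *Vopp1*, *Hoxa11*, *En2*, *Olig3*, *Pitx1* and *Lrrk1* were also called, from *Ezh2* KO levels of at most 5.23 normalized counts. Each of these 6 lost its call in at least 2 of the fits that left out a library. *Lrrk1* lost its call under edgeR and DESeq2 as well, and *Olig3* under DESeq2.

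**Figure D5:**
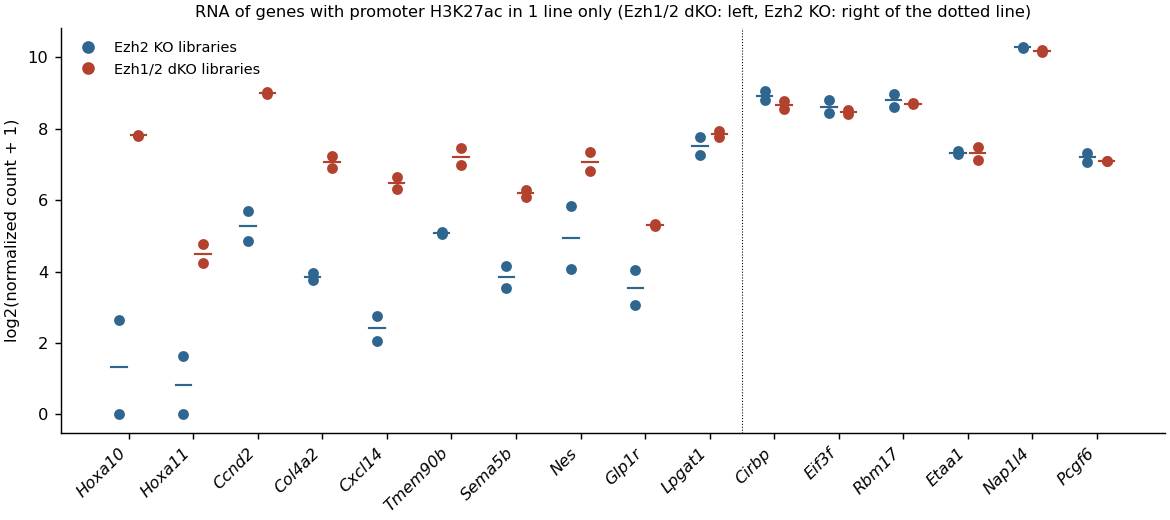
RNA of 16 genes with promoter H3K27ac in 1 line only, as log2(normalized count + 1), with a dot for each of the 2 libraries per line and a line at their mean. *Ezh1/2* dKO libraries lie above *Ezh2* KO libraries for *Hoxa10* to *Glp1r*, the libraries of *Lpgat1* are closer (215 and 153 against 246 and 217), those of *Eif3f*, *Rbm17*, *Etaa1* and *Pcgf6* overlap, and those of *Cirbp* (531 and 443 against 377 and 439) and *Nap1l4* (1223 and 1262 against 1133 and 1177) lie side by side without overlap.

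Of the 5 genes nearest the strongest distal *Ezh1/2* dKO peaks, 2 were called higher, against 3.52% of all genes tested and 14.8% of SUZ12-bound ones. Both called genes were SUZ12-bound. *Cbx8* was at 5.23 and 6.77 in *Ezh2* KO and at 73.4 and 134 in *Ezh1/2* dKO (log2 fold change 3.85 ± 0.63, limma adjusted p = 0.0185), and *Sfmbt2* rose from 377 and 434 to 863 and 937 (1.15 ± 0.22, limma adjusted p = 0.0336). *Cbx8* lost its call without *Ezh2* KO replicate 1 or either *Ezh1/2* dKO replicate (limma adjusted p up to 0.228), and *Sfmbt2* without any 1 of the 4 libraries (0.127 to 0.316). *Tshz3* and *Chn1* did not pass, with log2 fold changes of 0.74 and 1.22 (limma adjusted p = 0.740 and 0.281), and *Dnajc5b* was too low to be tested (0 and 2.90 against 6.59 and 3.55). None of the 5 genes nearest the strongest distal *Ezh2* KO peaks was called. *Fzd7* was at 179 and 155 in *Ezh2* KO and at 80.8 and 64.8 in *Ezh1/2* dKO, without overlap (-1.19 ± 0.34, limma adjusted p = 0.130), and DESeq2 called it lower, while *Rcan1*, *Sod1*, *Ank2* and *Morc1* had log2 fold changes from -0.18 to 0.23. A distance in the linear genome does not show which gene a distal site acts on.

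None of the genes with the 10 strongest *Ezh2* KO-only promoter peaks was called in RNA. *Cirbp* was at 531 and 443 in *Ezh2* KO and at 377 and 439 in *Ezh1/2* dKO (log2 fold change -0.25 ± 0.17, limma adjusted p = 0.611), so that the higher *Ezh1/2* dKO library lay just under the lower *Ezh2* KO one. *Eif3f* was at 444 and 346 against 339 and 366 (-0.16 ± 0.18, limma adjusted p = 0.788), so its groups overlapped. *Cit* was at 411 and 543 against 317 and 302 (-0.61 ± 0.18, limma adjusted p = 0.139), which did not overlap and did not pass. The only called decrease in this class was *Ddx58*, which encodes the RNA sensor RIG-I, from 563 and 348 to 243 and 171 (-1.11 ± 0.26, limma adjusted p = 0.0659), and it lost its call in 3 of the 4 fits without a library (up to 0.483). *Fgf1*, a growth factor, went the opposite way to its peak, from 6.27 and 6.77 to 51.9 and 53.3 (2.83 ± 0.55, limma adjusted p = 0.0336), and so did *Nhsl2* (2.28 ± 0.46, limma adjusted p = 0.0398) and *Tmem189* (1.88 ± 0.40, limma adjusted p = 0.0467). *Fgf1* and *Tmem189* lost the call without any 1 library, and *Nhsl2* in 3 of the 4 fits (up to 0.320).

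Of 10 primitive endoderm genes, 9 of them SUZ12-bound, 7 were tested in RNA and 2 were called higher in *Ezh1/2* dKO, *Col4a1* and *Dab2*. Over all genes tested 3.52% were called higher, and over SUZ12-bound ones 14.8%. Calls were not particular to this list. They were made for 4 of 10 germline genes tested, 2 of 4 neuroectoderm, 1 of 8 trophectoderm, 1 of 6 formative and 0 of 4 mesoderm genes. *Dab2* rose from 5.23 and 1.94 to 74.2 and 60.4 (log2 fold change 3.99 ± 0.62, limma adjusted p = 0.0152) and lost its call without either *Ezh1/2* dKO library. *Gata4*, *Sox7*, *Pdgfra* and *Hnf4a* did not pass (limma adjusted p from 0.102 to 0.594). Summed over the 10 primitive endoderm genes, normalized counts were 375 and 684 in *Ezh2* KO and 1345 and 1349 in *Ezh1/2* dKO. *Lama1*, at 248 and 586 against 296 and 511, did not add to that difference (log2 fold change 0.03, limma adjusted p = 0.991). The defining factors *Gata4*, *Gata6*, *Sox17* and *Foxa2* summed to 3.14 and 5.81 against 32.1 and 34.6, with *Sox17* and *Foxa2* at 0 in *Ezh2* KO and at most 1.78 in *Ezh1/2* dKO. *Cdx2*, *Elf5* and *Gata3*, of trophectoderm, summed to 116 and 89.0 against 221 and 219, mostly *Gata3*. The part of other cell types in the collagen and *Hox* results was not tested, and in bulk RNA more cells of a type and more RNA per cell cannot be told apart.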

How the data were processed

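H3K27ac ChIP-seq was deposited as 1 peak list per line. Per the study's methods, the authors aligned reads to mm9 with Bowtie, kept unique reads, and used Picard against duplicates and MACS2 for peaks. The study's methods and its reporting summary state different p cutoffs, and the deposited lists end at the 1e-10 of the latter. The deposited lists give each peak a fold enrichment over background (a ratio) and a -log10 p, and peaks were ranked by the latter. Replicate libraries of H3K27ac were not used here, so differences between lists have no test. RNA-seq was deposited as a signal, DESeq2-normalized counts per gene made by the authors from unstranded counting, in which overlapping and antisense genes cannot be told apart. Dividing by the step of 1 read gave whole reads for all values (100% within 0.01), 3604123 to 5181553 reads in genes per library, enough that low genes remain noisy.

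Overlaps of at least 1 bp were counted with Python 3.11.15, numpy 2.4.6 and pandas 2.3.3, and Wilson intervals (95%) with scipy 1.17.1. TSSs came from the GENCODE annotation of mm9 (NCBIM37). Of 18055 RNA symbols, 16570 matched it directly and 854 matched through RefSeq synonyms. For equal list length the *Ezh2* KO list was taken down to its 17618 largest -log10 p, which ends at 12.2 with 1306 peaks tied there. H3K27me2 regions and ATAC-seq regions were used for overlap only, the latter as the 50000 of largest -log10 p. RNA was tested with limma 3.58.1 in R 4.3.3 on log2(normalized count + 1) for genes with a mean of at least 5, over all 8 libraries, with 4 residual degrees of freedom. edgeR 4.0.16 and DESeq2 1.42.0 on the recovered reads, and equal length among peaks of p at most 1e-20, were alternatives chosen after seeing the data. The scripts were tested on simulated data. No source states that the 2 RNA libraries of a line came from separate cultures, so p-values measure the spread between these samples, which may be technical.

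The peaks, gene lists and tests were chosen with earlier results of these data known. Genes named were the members of fixed lists, the 10 promoter peaks and 5 distal peaks of largest -log10 p per line with no peak of the other line within 5 kb, and the genes of a promoter class called in RNA, up to 10 per direction by fold change. *Col4a1* is a member of the primitive endoderm list. All protein-coding genes of the annotation entered the promoter counts.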

Additional observations from a re-analysis of the deposited data

How the results depend on the processing

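Under the alternatives, 44 values were classed as the same as the reported one and 43 as moved. Shares and the ratio of widths were judged by the interval of the reported value. Medians were judged by their spread over pairs of libraries. Numbers of genes called have no such error, and a wide margin was used for them. By that margin 614 against 488 genes called higher, and 11 against 8 called lower, were classed as the same. For these numbers the class does not mean agreement within statistical error. Most of the values are shares or counts that cannot change sign, and the order of the lines at SUZ12-bound promoters turned at p of 1e-20. The share of *Ezh1/2* dKO peaks shared with *Ezh2* KO (80.3%) was 87.0% at p of 1e-20, 71.6% at equal length by -log10 p, 69.6% at equal length by fold enrichment and 77.2% when 50% of the peak had to be covered. The share of *Ezh2* KO peaks shared (50.01%) was 41.9%, 62.8%, 61.4% and 38.5% under these settings and 55.3% after merging peaks closer than 1 kb. The promoter share of *Ezh1/2* dKO-only peaks (39.6%) was 46.4% at p of 1e-20, 41.3% after merging and 24.97% with promoters limited to 1 kb, and that of *Ezh2* KO-only peaks (49.7%) was 61.3% at p of 1e-20, 53.0% at equal length, 51.3% with 50% covered and 31.6% at 1 kb. SUZ12-bound promoters with a peak in *Ezh1/2* dKO (15.9%) were 2.94% at p of 1e-20, the same at equal length among those peaks, and 20.5% with peaks within 5 kb, while those in *Ezh2* KO (11.9%) were 3.75%, 1.70% and 16.8%, and 8.33% at equal length of the full lists. The ratio of median widths (0.827) was 0.661 at equal length and 0.749 after merging. Genes called higher (488) were 253 with a mean of at least 20, 166 after quantile normalization, 1124 when only the 4 libraries of the 2 lines were fitted, and 52 to 236 without 1 library, and genes called lower (8) were 5 with a mean of at least 20, 57 with 4 libraries, 14 with DESeq2 and 1 to 4 without 1 library. The median change of genes with *Ezh1/2* dKO-only promoters (0.21) was 0.14 after quantile normalization and 0.58 with the lists as deposited, and that of *Ezh2* KO-only promoters (-0.08) was -0.0584 after quantile normalization and -0.106 to -0.079 without 1 library. Of the 19 named genes called, 3 were called in every fit that left out 1 library and 6 in none, 9 were called after quantile normalization, 18 under edgeR and 17 under DESeq2. The cause of these moves was not tested.

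The deviations of same-numbered RNA libraries correlated at 0.223 between *Ezh2* KO and *Ezh1/2* dKO and at 0.241 and 0.288 between each of these and Y726D, but at -0.0653 to -0.409 between WT and the other lines. No label says what the number marks, and with 2 numbers per line it was not taken as a pairing. With the replicate number as a block, 405 genes were called higher and 7 lower, the medians stayed at 0.21 and -0.08, and 18 of the 19 named genes were called.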
